A study of Arabidopsis thaliana with 10 samples.

Results

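The delayed set on the positive side held 22 probes of a cDNA array, out of 10816 probes on the array and 10523 measured on all 8 arrays made at 4 to 16 h of treatment. They were chosen by their log ratios at 4, 8, 10 and 16 h. The mean of the 2 arrays of a time after the sign of the second is changed, called the turned value below, had to lie between -0.1 and 0.1 at 4 h and at or above 0.15 at each of 8, 10 and 16 h. If the deposited values are base-10 logarithms, which is likely but not stated, these limits are 1.26-fold and 1.41-fold. The 22 probes were 0.209% of those measured on the 8 arrays. No gene is named, because no table used here pairs the probes with genes.

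The RNA came from inflorescences of Arabidopsis thaliana plants of the genotype ag-1;35S::AG-GR, and both channels of every array held RNA of that genotype. One channel held plants given dexamethasone and the other plants given a control solution, for 0, 4, 8, 10 or 16 h, with 2 arrays at each time. The dexamethasone sample lay in channel 1 on the arrays numbered 1 and in channel 2 on those numbered 2, so subtracting the pair puts both arrays on 1 direction. The sources used here do not state the numerator of the deposited ratio. Whether the positive side means more or less transcript with dexamethasone is therefore unknown. The sources used here also do not state the plants' age, the dose of dexamethasone or whether the 2 arrays of a time came from separate plants, so that the error behind each p-value may be technical only.

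AGAMOUS, a floral regulator of the MADS family, gives stamens and carpels their identity and ends the growth of the floral meristem. In ag-1 mutants, flowers repeat sepals and petals in place of the inner organs. The fusion to the steroid-binding domain of the glucocorticoid receptor is held in the cytoplasm until dexamethasone lets it enter the nucleus. The 35S promoter is active in most plant tissues, so that the fusion is not restricted to the cells where AGAMOUS acts in wild-type flowers. In time courses of this kind, transcripts that change soon after induction are candidates for direct targets, while later changes can also pass through the products of earlier ones. The arrays do not tell these apart.

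Between 10128 and 10670 probes were measured per array, after values of exactly 2 or -2 were set aside. Over probes, the deposited values of the first 0 h array correlated at -0.0367 to 0.0479 with those of the others. The treated arrays numbered 1 correlated at 0.362 to 0.500 with each other and at -0.0626 to 0.179 with those numbered 2. Those numbered 2 correlated more closely with each other, at 0.595 to 0.702. The first 0 h array thus stood apart from the other arrays of its number. For the main 0 h results the value on the second array is given as well.

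The median turned value of the 22 probes was -0.0129 at 0 h (n = 19 probes) and 0.0651 at 4 h. For 8, 10 and 16 h it was 0.197, 0.234 and 0.201, which in base 10 is 1.58-fold, 1.72-fold and 1.59-fold. Over all probes measured on the 8 treated arrays, the median lay between -0.00396 and 0.00224 at these times. The members' values ran from -0.0712 to 0.0966 at 4 h and reached as high as 0.665, 0.348 and 0.466 at the 3 later times. The values at 4, 8, 10 and 16 h are those the choice was made on and are given as a description.

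At 4 h, 16 of the 22 probes were already on the positive side as a mean of the pair, 12 of them above 0.05, while 3 members lay below -0.05. The mean of 8, 10 and 16 h exceeded the 4 h value by 0.0847 to 0.506, with a median of 0.139. On the arrays numbered 1 this step had a median of 0.261 (-0.0520 to 0.881) and was positive for 21 of 22 members. On those numbered 2 it had a median of 0.0947 (-0.112 to 0.344) and was positive for 18. The SD over the 6 later arrays had a median of 0.138, which includes the gap between the array numbers. Over the 3 later times of 1 array number the median SD was 0.0885 for number 1 and 0.0531 for number 2. The standard error of 1 time's mean in the limma fit of all 10 arrays was 0.0963 (median over the 19 members tested at 0 h), against 0.0778 over all probes, and 0.0710 for the members with the array number as a block. Of the 22 members, 6 lay within the window of 0.1 on both 4 h arrays, and 11 had opposite signs on them. Both 4 h arrays were positive for 9 members and negative for 2, against 2211 and 2229 of all 10523 probes. Both 4 h arrays lay below all 6 later arrays for 6 of 22 members. The same was true of 1.45% of all probes, but the choice of the members used these values and nothing is read from the difference.

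**Figure D1:**
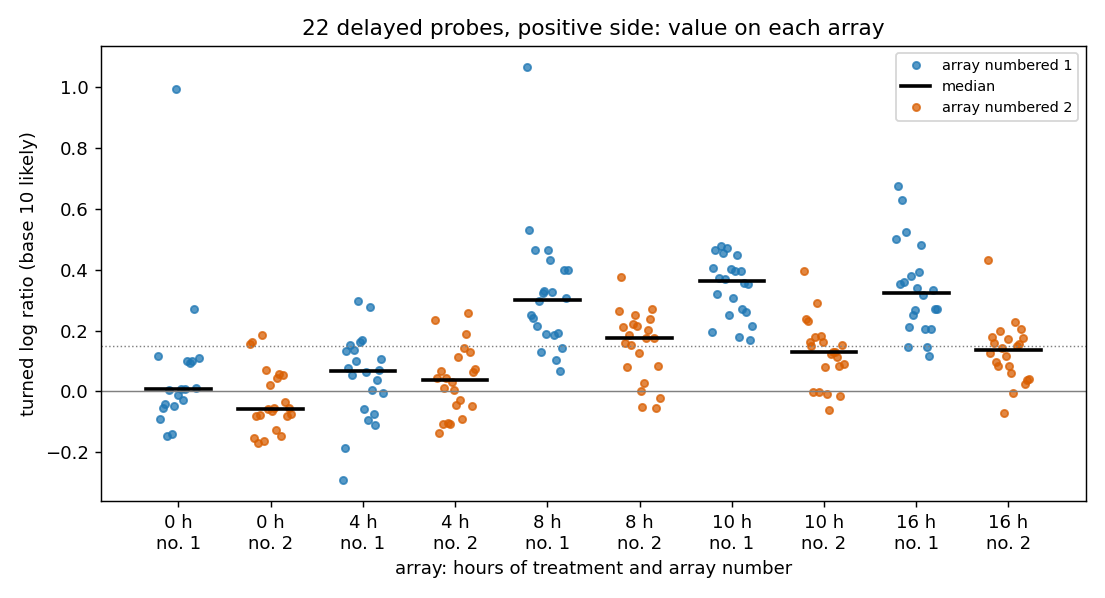
Turned log ratio (vertical axis, base 10 likely) of each of the 22 delayed probes on each of the 10 arrays, with the median of the members on each array as a bar; the dotted line is the minimum of 0.15. The medians of the arrays numbered 1 lie above those numbered 2 at every time, and the 2 medians at 4 h, 0.0679 and 0.0374, lie below all 6 medians of 8, 10 and 16 h.

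The values differed between the array numbers. The median over members was 0.301, 0.363 and 0.325 on the arrays numbered 1 at 8, 10 and 16 h. On those numbered 2 it was 0.175, 0.129 and 0.135. For 21 of 22 members the mean of the 3 later times was higher on the arrays numbered 1, against 56.0% of all probes. Those means ran from 0.180 to 0.588 for number 1 and from -0.0137 to 0.364 for number 2. All 3 later arrays numbered 1 reached 0.15 for 16 members, all 3 numbered 2 for 4 members and all 6 for 3 members. Taken array by array instead of by the mean of a pair, the rule was met by 1 member, GP005A8. The other 2 that reached 0.15 on all 6 arrays were GP078A2 and GP002D3.

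All 6 later arrays were on the positive side for 16 of 22 members, against 4.76% of all probes, another count the choice bears on. Of the others, 2 members were positive on 5 arrays and 4 on 4 arrays. The highest of the 3 later times was 8 h for 9 members, 10 h for 6 and 16 h for 7. For members such as GP115C1, at 0.173, 0.170 and 0.180, the times differed by less than the standard error given above. Neither a shared later peak nor its absence is therefore read from these counts.

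Probe GP078A2 had the highest mean over 8, 10 and 16 h, 0.476 ± 0.310 (SD, n = 6 arrays), or 2.99-fold in base 10. Its turned values were -0.293 and 0.233 on the 2 arrays of 4 h, 1.07 and 0.263 at 8 h, 0.196 and 0.396 at 10 h, and 0.500 and 0.432 at 16 h. The 4 h mean of -0.0299 thus averaged 2 arrays of opposite sign, and the 8 h array numbered 1 stood far above the rest.

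Probe GP114C6 followed with 0.392 ± 0.197 (SD, n = 6), or 2.47-fold. It read -0.186 and 0.0435 at 4 h, 0.530 and 0.377 at 8 h, 0.405 and 0.239 at 10 h, and 0.676 and 0.127 at 16 h. All 6 later arrays lay above both 4 h arrays. At 0 h, however, it read 0.115 and 0.161, both on the positive side. GP078A2 and GP114C6 were the 2 members whose later mean reached 2-fold.

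Probe GP002D3 had a later mean of 0.282 ± 0.108 (SD, n = 6), or 1.91-fold. It read 0.131 and -0.137 at 4 h, 0.250 and 0.211 at 8 h, 0.466 and 0.231 at 10 h, and 0.354 and 0.180 at 16 h, with no overlap between 4 h and later. Probe GP002D11 of the same plate had 0.228 ± 0.0909, with 0.0992 and -0.105 at 4 h and 0.129 to 0.370 later, again with no overlap. On both 0 h arrays these 2 probes were on the negative side, at -0.0907 and -0.154 for GP002D3 and at -0.146 and -0.164 for GP002D11.

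Probe GP005A8 had the most even 4 h pair among the highest members, 0.0763 and 0.0681. Its later values were 0.242 and 0.159 at 8 h, 0.319 and 0.161 at 10 h, and 0.628 and 0.158 at 16 h, with a mean of 0.278 ± 0.183 (SD, n = 6). The 3 arrays numbered 2 were nearly level, while those numbered 1 reached their highest value at 16 h.

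Probe GP001C4 read 0.137 and 0.0450 at 4 h, 0.296 and 0.152 at 8 h, 0.455 and 0.179 at 10 h, and 0.146 and 0.197 at 16 h. All 6 later values lay above those of 4 h, the nearest by a narrow margin, and the mean was 0.237 ± 0.119 (SD, n = 6). Probe GP008H9 read 0.0538 and 0.0111 at 4 h. Later it read 0.215 and 0.186 at 8 h, 0.478 and -0.00128 at 10 h, and 0.524 and 0.0827 at 16 h. Its 2 arrays came close to each other at 8 h and stood far apart at 10 and 16 h.

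Probes GP003B11 and GP003B12 lie in neighbouring wells. GP003B11 had a later mean of 0.254 ± 0.164 (SD, n = 6), with 0.360 to 0.464 on the arrays numbered 1 and 0.0804 to 0.148 on those numbered 2. GP003B12 had 0.224 ± 0.0726, with 0.250 to 0.329 and 0.115 to 0.216. Each number alone thus placed both on the positive side, at different sizes. At 4 h GP003B12 read 0.162 and 0.0314, and its mean of 0.0966 was the highest of the set at that time.

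**Figure D2:**
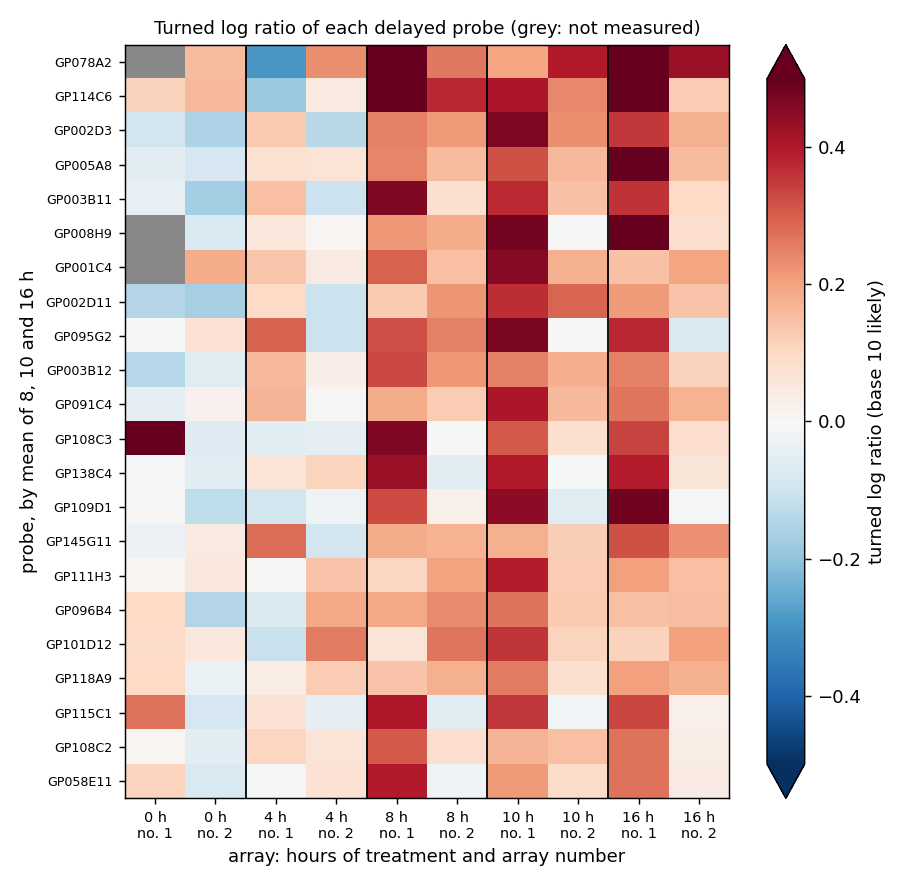
Turned log ratio of each delayed probe (rows, ordered by the mean of 8, 10 and 16 h) on each array (columns); red is the positive side, blue the negative side, grey not measured, and colours stop at 0.5 in size. The columns numbered 1 at 8, 10 and 16 h are darker red than those numbered 2 for most probes, and 3 probes have no value on the first 0 h array.

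For a further group the later values came mainly from 1 array number. Probe GP109D1 read 0.326, 0.447 and 0.481 on the arrays numbered 1 at 8, 10 and 16 h. On those numbered 2 it read 0.0267, -0.0614 and -0.00627. Probe GP115C1 likewise read 0.399, 0.353 and 0.333 against -0.0533, -0.0137 and 0.0258. On the arrays numbered 2 alone, neither had a positive mean over these hours, at -0.0136 and -0.0137. Probe GP138C4 was alike, with 0.433, 0.396 and 0.394 against -0.0528, -0.00836 and 0.0612. Probe GP095G2 showed the split at 10 and 16 h, with 0.472 and 0.378 against -0.00329 and -0.0723, but not at 8 h, with 0.323 and 0.253. It also had 0.296 and -0.108 on the 2 arrays of 4 h, so that its place in the window of 4 h rested on their average.

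Probe GP108C3 read 0.464, 0.308 and 0.340 on the later arrays numbered 1 and 2e-05, 0.0793 and 0.0828 on those numbered 2. Its neighbour GP108C2 is also a member, at a later mean of 0.170 ± 0.104 (SD, n = 6). Probes GP091C4, GP111H3, GP101D12 and GP118A9 had later means of 0.220, 0.198, 0.188 and 0.174, with all 6 later arrays on the positive side. Their 4 h means of 0.0872, 0.0736, 0.0741 and 0.0838 all lay above the median of the set.

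The limit of 0.15 separated probes that barely differed. The members nearest to it were GP096B4, GP145G11 and GP058E11, whose lowest time stood at 0.1503, 0.1508 and 0.1524. Just outside stood GP076D1, GP114E8 and GP090F1, at 0.1468, 0.1456 and 0.1442. These gaps are small beside the standard error of a time's mean given above. With a limit of 0.1, 129 probes met the rest of the rule, and with 0.2 only 6.

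The 0 h arrays played no part in the choice. In the limma fit of all 10 arrays, the 0 h turned value differed from 0 for 0 of 9912 probes (0%, Benjamini-Hochberg adjusted p under 0.05). At an unadjusted p under 0.05 stood 196 probes in all and 2 of the 19 members tested, GP002D11 and GP108C3. Without the first 0 h array, again 0 probes were called, with 107 and 0 members at an unadjusted p under 0.05. With the array number as a block, which takes out an effect of the channel per probe, 0 probes (0%) passed, with 493 and again 2 members at an unadjusted p under 0.05. The pair mean was on the positive side for 9 of 19 members and on the negative side for 10. It lay within 0.1 of 0 for 13 members and reached 0.15 for 1, GP108C3.

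On the second 0 h array, which measured all 22 members, their median was -0.0577, against -0.00951 over all probes. It put 8 of 22 members on the positive side (36.4%), against 45.6% of all probes. On the first 0 h array the members' median was 0.00762 and that of all probes 0.00505. GP078A2, GP008H9 and GP001C4 stood at the positive limit there and were not measured, which makes 3 of 22 members (13.6%) against 6.07% of all probes measured on the 8 treated arrays. GP108C3 read 0.993 on the first array and -0.0657 on the second. It was called at 0 h only when the second array was left out (limma adjusted p = 0.028, adjusted p of 0.56 or higher under the other settings), and then rested on the array that stands apart.

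Both 0 h arrays were on the negative side for 6 and on the positive side for 4 of the 19 members measured on both. Over all probes the counts were 2802 and 2562 of 9859. The lowest 0 h means were those of GP002D11, GP002D3 and GP003B11, at -0.155 ± 0.0132 (SD, n = 2), -0.122 ± 0.0445 and -0.105 ± 0.0919. The highest were those of GP108C3, GP114C6 and GP115C1, at 0.464 ± 0.748, 0.138 ± 0.0326 and 0.0940 ± 0.249. The spread of GP108C3 and GP115C1 exceeded their means.

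The members were also set out by plate. The plate was read from the probe identifier, an inference from its form. Plates up to GP008 held 7 of the 22 members, which is 0.902% of the probes measured there, against 0.154% on the later plates. They were GP001C4, GP002D3, GP002D11, GP003B11, GP003B12, GP005A8 and GP008H9. The boundary between these plates was set after the values were seen. The 5 of these 7 with a 0 h mean lay between -0.155 and -0.0684, all on the negative side, while the 14 on later plates with a 0 h mean lay between -0.0601 and 0.464 with a median of 0.0248. The other 2, GP001C4 and GP008H9, stood at the positive limit on the first 0 h array. On the second they read 0.185, the highest of all 22 members, and -0.0779. On the second array alone the 7 members ran from -0.170 to 0.185 with a median of -0.0823, and 6 were negative. The 15 on later plates ran from -0.147 to 0.161 there with a median of -0.0346, and 8 were negative, and this range lay within that of the first plates.

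Over the other probes of the first plates the median was -0.0481 at 0 h, against -0.00048 on later plates, and on the second 0 h array -0.0565 against -0.00597. Their medians at 4 to 16 h lay between -0.00418 and 0.00723. A later mean of at least 0.15 was reached by 42 of these 769 probes, against 204 of 9732 on the later plates, and a mean of -0.15 or lower by 5.07% against 2.55%. Of the 31 non-members on the first plates with a later mean of at least 0.15 and a 0 h mean, 29 were on the negative side at 0 h. On the later plates it was 77 of 181. On the second 0 h array alone the counts were 33 of 42 and 101 of 204. The part of the plate in the members' values was not tested.

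The members lay on 19 of 114 plates, 3 of which held 2 members and 16 held 1. The pairs GP003B11 with GP003B12 and GP108C2 with GP108C3 were side by side. The 34 measured non-members in the wells beside a member had a median later mean of 0.00720, against -0.00031 over all non-members. A later mean of at least 0.15 was reached by 3 of the 34 (8.82%), against 2.34% of all non-members. These were GP002D12 at 0.284, GP002D2 at 0.207 and GP005A7 at 0.177, which are all on the first plates beside GP002D11, GP002D3 and GP005A8. GP002D12 and GP002D2 also resembled these members at 0 h, with -0.130 and -0.128 as pair means and -0.177 and -0.121 on the second array. They were no members because GP002D12 and GP005A7 read 0.155 and 0.131 at 4 h. GP002D2 was within the window at 4 h, at 0.0165, but did not reach the minimum at every later time.

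**Figure D3:**
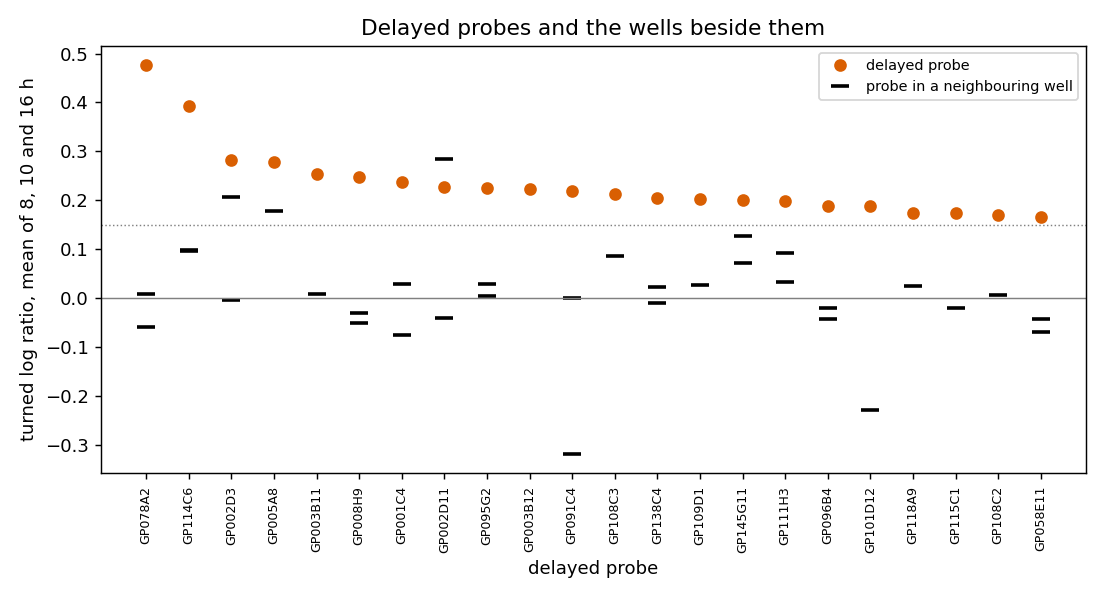
Mean turned log ratio of 8, 10 and 16 h (vertical axis) of each delayed probe as a circle and of the probes in the wells directly beside it in the same plate row as dashes, where these are no members. The dashes above the dotted line at 0.15 are the 3 beside GP002D3, GP005A8 and GP002D11.

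The sum of the 2 arrays of a time was not part of the rule. Its mean, called the channel part, holds what had 1 sign on both arrays, such as an effect of the dye on a probe. Over 8, 10 and 16 h the members' channel part ran from -0.00833 to 0.216 with a median of 0.0953. It was positive for 21 of 22 members, against 56.0% of all probes, whose median was 0.0125. The channel part is the gap between the turned values of the 2 array numbers on another scale. These counts therefore restate those given above for the array numbers and are no second observation. At 4 h its median over members was 0.0127, with 12 of 22 positive, and at 0 h 0.0219, with 13 of 19 positive. At 8, 10 and 16 h its median was 0.0492, 0.113 and 0.101. The turned value exceeded the channel part for 20 of 22 members, the exceptions being GP109D1 and GP115C1.

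The channel part is not fully separate from the choice. The treated arrays numbered 1 had a wider spread over probes than those numbered 2, with median absolute deviations of 0.0929 to 0.106 against 0.0590 to 0.0696. The turned value and the channel part of the 3 later times correlated at 0.210 over the 10523 probes, which share arrays and are not independent replicates. A set chosen for high turned values can therefore also have high channel parts. The mirror of the rule on the negative side gave a median channel part of -0.00398 over the 3 later times. Probes at -0.15 or lower at all 4 treated times gave -0.00239. What the wider spread adds to the members' channel parts was not tested, and the counts that follow are a description. In a limma fit of the 8 treated arrays, the channel effect was past an adjusted p of 0.05 for 7 of 22 members, all positive, against 23.3% of all probes in either direction and 15.3% on the positive side. The 7 were GP095G2, GP115C1, GP109D1, GP138C4, GP003B11, GP108C3 and GP002D3. The largest effects were 0.175 for GP095G2 (SE 0.0362, limma adjusted p = 0.0085), 0.156 for GP115C1 (SE 0.0322, limma adjusted p = 0.0084) and 0.154 for GP109D1 (SE 0.0439, limma adjusted p = 0.030). The call of GP002D3 was marginal, at 0.0896 (limma adjusted p = 0.0496). Each time has its own turned coefficient in this fit, so a lone array of a time adds nothing to the channel effect. Leaving out 1 array thus removes its whole time, and the calls were not checked against single arrays. Which members were called changed with the time removed. The effect of GP095G2 ran from 0.154 (without 10 h) to 0.222 (without 8 h). For GP115C1 it ran from 0.132 (without 8 h) to 0.188 (without 4 h). For GP109D1 it ran from 0.120 (without 10 h) to 0.216 (without 4 h).

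**Figure D4:**
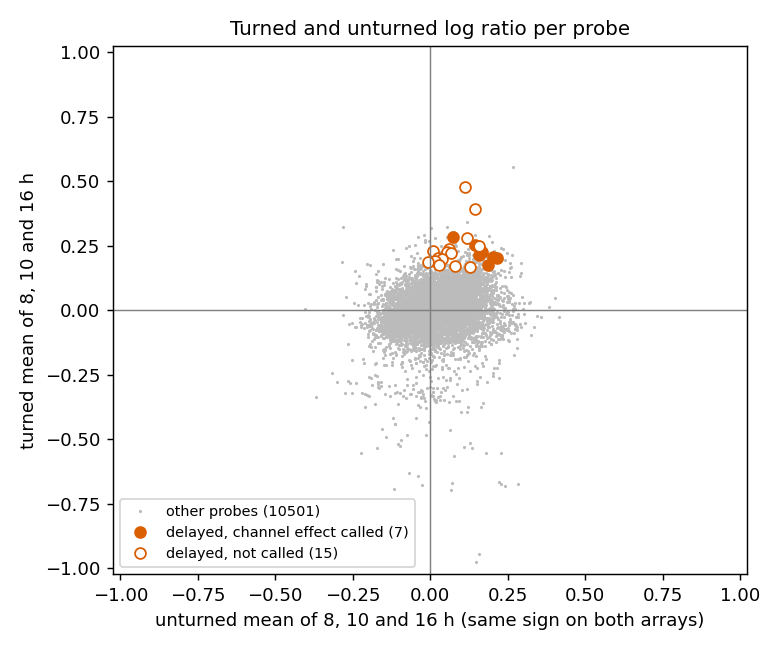
Turned mean (vertical axis) against unturned mean or channel part (horizontal axis) of the log ratios of 8, 10 and 16 h; grey points are the 10501 other probes measured on the 8 treated arrays, filled circles the 7 delayed probes with a channel effect past the threshold, open circles the other 15. The members lie at 0.166 or higher on the vertical axis, and 21 of 22 lie right of 0.

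Read with the other orientation, in which the unturned mean is taken as the treatment, the same rule gave 60 probes, and 2 of them were members of the set described here. The membership therefore rests on the channel labels.

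The sustained set on the positive side, defined here as 0.15 or higher at all 4 treated times, held 37 probes, and the delayed set on the negative side, the mirror of the rule, 38. At 8, 10 and 16 h the sustained positive set had medians of 0.268, 0.234 and 0.213, beside 0.197, 0.234 and 0.201 in the delayed set. A gap between array numbers was present there too. In the sustained set the median over the arrays numbered 1 was 0.366, 0.309 and 0.364 at these hours and over those numbered 2 it was 0.176, 0.181 and 0.178. Its median channel part over these hours, which measures the same gap, was 0.0798, near the 0.0953 of the delayed set.

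In the delayed negative set the array numbers did not part in 1 direction. Its medians were -0.302 and -0.302 at 8 h, -0.196 and -0.307 at 10 h, and -0.368 and -0.269 at 16 h for numbers 1 and 2, and its median channel part was -0.00398. At 4 h they were 0.0289 and -0.159, so that its quiet value at 4 h averaged 2 unlike arrays. The 2 medians of the delayed positive set at 4 h, 0.0679 and 0.0374, were closer. Probe by probe, however, 11 of the 22 members of that set had opposite signs on the 2 arrays. At 0 h the median was 0.0346 in the delayed negative set (n = 37 probes) and 0.00109 in the sustained positive set (n = 35). On the second 0 h array alone they were 0.0298 and -0.00715, the latter of the other sign. As over all probes, 0 members of these sets were called at 0 h. The differences between sets were not tested, since the sets were chosen by these values.

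**Figure D5:**
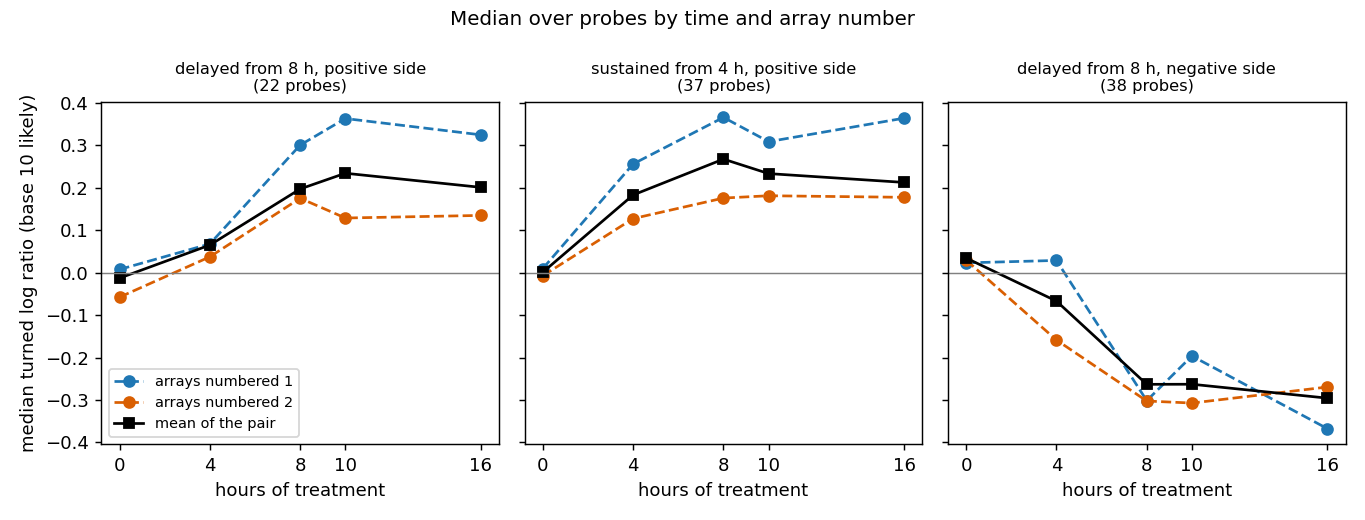
Median turned log ratio over the probes of 3 sets (panels) against hours of treatment, for the arrays numbered 1, the arrays numbered 2 and the mean of each pair (dashed lines with circles and solid line with squares). In both positive sets the arrays numbered 1 lie above those numbered 2 at 8, 10 and 16 h, and in the delayed negative set their order changes between times.

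The same rule with another hour in the quiet window gave fewer probes on the positive side, 3 with 8 h, 4 with 10 h and 16 with 16 h, against the 22 with 4 h. On the negative side the numbers were 5, 14 and 17, against 38. A course with a quiet 4 h was thus the most frequent of the 4 on both sides, and one with a quiet 16 h came next. These are counts without a test. Those with another quiet hour were not recounted under the alternative settings, some of which moved the 22.

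For the mean of 4 to 16 h, 6 of 22 members were among the 58 probes called on the positive side in the limma fit without the block, where 0.551% of all probes were called positive and 1.80% in either direction. With the array number as a block, 20 of 22 were among the 450 positive calls, where 4.28% were called positive and 8.60% in either direction. GP108C3 and GP109D1 were the 2 members not called there. The rule used these values, and nothing is read from the counts. Without the block they depended on single arrays, with 0 to 3 members called when any 1 array was left out.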

How the data were processed

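Transcripts were measured on 10 cDNA arrays with 2 channels, and the deposited table of the authors holds signed log ratios, taken as log10 because they stop at exactly 2 and -2. The sources used here do not state base, numerator, dyes or normalization. Column medians lay between 0.00314 and 0.0165. Signal over background is unknown. Precision is limited by the number of arrays. Samples were grouped by hour from the titles, and arrays numbered 2 changed sign. Members and lists were chosen with earlier results of these data known. Gene lists were not used, since the gene table matched 0 probe identifiers. Named probes are those with the highest later means, the highest lowest array, extreme 0 h values, the largest channel effects and pair gaps, and those nearest the limit. GP108C2 and the neighbours, plates and remaining members were named after their values were seen.

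Models were fitted with limma 3.58.1 (R 4.3.3; lmFit, eBayes) across all probes, two-sided, with Benjamini-Hochberg adjustment and a threshold of 0.05, and were tested on simulated data. Probes entered if measured on all arrays of the tested times and on at least 8 arrays. The replicate number marks the channel orientation. The unturned means correlated at 0.252 to 0.549 in all 10 pairs of times, which was taken as pairing, and results of the replicate block stand beside those without it. Descriptions used pandas 2.3.3 and numpy 2.4.6, plots matplotlib 3.10.9. Alternatives changed the limit values, centring, scale, array weights, thresholds, orientation and single arrays.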

Additional observations from a re-analysis of the deposited data

Results flagged for a closer look

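No group was large enough for Dixon's test of its highest or lowest array. For 5 members both 0 h arrays lay on the negative side while all 6 arrays of 8, 10 and 16 h lay on the positive side. Their 0 h means were -0.155 for GP002D11, -0.122 for GP002D3, -0.105 for GP003B11, -0.1 for GP003B12 and -0.0684 for GP005A8. All 5 lie on plates up to GP008, whose other probes had a median of -0.0481 at 0 h. GP003B11 and GP003B12 are neighbours. Both 0 h arrays were negative for 6 of the 19 members measured on both and for 2802 of the 9859 probes measured on all 10 arrays. All 6 later arrays were positive for 16 of 22 members, a count the choice bears on, and for 4.76% of all probes. The share of all probes with both was not counted, so nothing is read from the count of 5. Probe GP108C3 lay on the negative side on both 4 h arrays, with a mean of -0.0506, and on the positive side on all 6 later arrays, one of them at 2e-05. On the second 0 h array alone the 5 members read -0.164, -0.154, -0.170, -0.0593 and -0.0823, in the order above. These differences between times were not tested, and the later values are those the members were chosen on. The part of the plate in them was not tested.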

How the results depend on the processing

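Against the 22 members, a minimum of 0.1 gave 129, a minimum of 0.2 gave 6, a window of 0.05 at 4 h gave 7 and the other orientation 60. Leaving out single treated arrays gave 14 (without 10 h replicate 1) to 46 (without 4 h replicate 1), with 9 and 12 of the 22 among them. These leave-outs, plate centring and the settings for single probes were chosen after seeing the data. Keeping the limit values gave 23, centring arrays 21, scaling them 16 and centring plates 17, with 22, 20, 12 and 13 of the 22 among them. The members' median at 0 h was -0.0577 and 0.00762 when either 0 h array stood alone. At 4 h it was 0.0374 and 0.0679, and at 8 h 0.175 and 0.301, for number 2 and number 1 alone. The later mean of GP109D1 was -0.0136 on the arrays numbered 2 alone and 0.418 on those numbered 1, and that of GP115C1 -0.0137 and 0.362.

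At 0 h, against 0 called probes, keeping the limits gave 2, the replicate block without the first 0 h array 8 and leaving out single arrays 0 to 71, with 0 to 1 members. For the channel effect, against 2453 probes and 7 members, leaving out arrays gave 1292 to 2008 and 3 to 9, and scaling gave 4 members. For the mean of the treated times, against 189 and 6, keeping the limits gave 88 and 1, the replicate block 905 and 20, only the treated arrays 1 member, and leaving out arrays 41 to 147 and 0 to 3. The removal of a time from the channel effect, and of a 0 h array from the estimate of spread, follow from the fit. The cause of the other changes was not tested. Where a lone array gave a time's value, it is assumed to vary like the others.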
